A study of Mus musculus with 2 samples.

Results

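The genes described here are the 7 genes of MHC class II presentation H2-Aa, H2-Ab1, H2-Eb1, H2-DMa, H2-DMb2, Cd74 and Ciita. They were chosen by symbol from the 32285 genes in the files, with earlier results of these data known. Counts came from single cell RNA sequencing (scRNAseq) of dissociated kidneys from wildtype male C57BL/6J mice aged 19 weeks, and nothing in the labels says whether both kidneys came from the same animal. The control library was a contralateral, uninjured kidney, and the ischemia library was a kidney after 27 minutes of ischemia and 24 hours of reperfusion. Since the contralateral kidney belongs to an operated animal, the control is not a kidney of an unoperated mouse. Each condition had 1 library. A test between conditions was therefore not possible, and every interval is a 95% interval for counting error only.

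MHC class II molecules display peptides from endocytosed protein to CD4+ T cells. An alpha and a beta chain (H2-Aa with H2-Ab1 for I-A, and H2-Eb1 as the beta chain of I-E) pair in the endoplasmic reticulum with the invariant chain Cd74, which fills the groove and guides the complex to endosomes. There the H2-DM heterodimer, H2-DMa with a beta chain from H2-DMb1 or H2-DMb2, exchanges the remnant of the invariant chain for peptide. Ciita is the coactivator that sets transcription of these genes. It binds no DNA itself, and acts through the RFX and NF-Y complexes bound at the X and Y boxes of class II promoters. Dendritic cells, macrophages and B cells express the genes constitutively, and interferon gamma can induce Ciita in other cells in part through Irf1. C57BL/6 mice make no I-E alpha chain, so H2-Eb1 is transcribed there without its usual partner.

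Of the 7 genes, 5 lie together on chromosome 17 of GRCm38: H2-DMa at 34119541 to 34139101, H2-DMb2 at 34143307 to 34151555, H2-Ab1 at 34257689 to 34269419, H2-Aa at 34282744 to 34287823 on the minus strand, and H2-Eb1 at 34305867 to 34316674. Ciita lies on chromosome 16 at 10480059 to 10528418. All are protein-coding in GENCODE. Promoter sequences in the RefSeq table (GRCm38.p6, 250 bases before to 50 after each start) matched 4 of the 7 genes. They are shown because the genes below differ together between cell types, with the letters GATTGG (the core of the Y box, a CCAAT box read backwards) and, where found upstream of it, GCAAC (part of the X box) in capitals, each read 5′ to 3′ on the gene's strand. H2-DMb1, the second H2-DM beta chain, is shown for comparison with H2-DMb2. H2-DMa has 2 entries, 1 of them with GATTGG, and is not shown.
H2-Aa, chr17:34287857-34287906, minus strand: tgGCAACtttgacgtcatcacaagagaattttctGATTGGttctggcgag
H2-Eb1, chr17:34305773-34305822, plus strand: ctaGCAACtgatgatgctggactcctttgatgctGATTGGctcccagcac
H2-DMb2, chr17:34145124-34145173, plus strand: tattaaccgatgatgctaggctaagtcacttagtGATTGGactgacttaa
H2-DMb1, chr17:34153095-34153144, plus strand: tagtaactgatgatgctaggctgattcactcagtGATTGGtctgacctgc
GATTGG began 49 bases before the RefSeq start of H2-Aa, 60 before that of H2-Eb1, 91 before that of H2-DMb2 and 62 before that of H2-DMb1. RefSeq and GENCODE starts are the same for H2-Aa and H2-Eb1 and differ for H2-DMb2 and H2-DMb1. The windows of H2-DMb2 and H2-DMb1 lie inside the GENCODE genes, which begin at 34143307 and 34153072. Between GCAAC and GATTGG lay 27 bases in H2-Aa and 26 in H2-Eb1. Of all 32851 promoters of this length, 16.1% held GATTGG on either strand, 35.2% held GCAAC on either strand, and 0.356% held on either strand GCAAC followed by GATTGG after 10 to 30 bases. A match of letters is a description of the window and not evidence of binding.

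Barcodes with 200 genes or more, 500 to 150000 UMIs (counted molecules) and no more than 55% mitochondrial UMIs were taken as cells, which left 12586 control and 13116 ischemia cells. Median depth was 3839 UMIs per cell in control and 2138.5 in ischemia, and 58 cell barcodes occurred in both libraries. Cells were grouped into 17 clusters, named from marker genes with the suffix "-like". The largest cluster, 10429 cells with a median of 836 UMIs, stayed unnamed. So did another of 1590 cells with a median of 3912.5 UMIs, led by Wfdc15b, Ppp1r1a, Pgam2 and Pvalb. Levels are given as CPM, a gene's share of all UMIs in the pooled cells of a group, scaled to counts per 1000000.

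In each kidney the class II genes were read mostly from a small set of leukocytes. Leukocyte-like cells made up 3.65% of control cells and held 93.0% (92.8 to 93.2) of the UMIs of the 7 genes. In ischemia they made up 7.21% of cells and held 90.2%. Over whole libraries the summed level hardly differed, at 519 CPM in the control library and 535 CPM in ischemia. The less abundant members differed more. Ratios of ischemia to control were 1.58 (1.48 to 1.69) for H2-DMa, 1.67 (1.28 to 2.19) for H2-DMb2 and 1.38 (1.20 to 1.60) for Ciita. Those of H2-Aa, H2-Ab1, H2-Eb1 and Cd74 lay from 0.894 (H2-Eb1) to 1.08 (Cd74). Of the UMIs of the 7 genes, proximal tubule-like cells held 2.01% in control and 5.25% in ischemia. The members differed in this share. Proximal tubule-like cells held 1.61% of Cd74 and 2.56% of H2-Ab1 UMIs in control, but 15.01% (13.2 to 16.98) of H2-DMa, 13.2% (7.004 to 21.9) of H2-DMb2 and 14.4% (10.8 to 18.7) of the 326 Ciita UMIs. In ischemia they held 2.71% of Cd74, 8.19% of H2-Ab1, 27.7% of H2-DMa, 15.3% of H2-DMb2 and 41.4% (36.9 to 46.0) of the 466 Ciita UMIs. Proximal tubule-like cells were 31.2% of control and 21.4% of ischemia cells, and held larger parts of all UMIs. Per UMI, every member was lower there than over whole libraries. H2-DMa was at 2.96 against 11.4 CPM in control and at 9.39 against 18.0 CPM in ischemia.

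Levels were highest in dendritic-like and C1q macrophage-like cells of both kidneys. In control, the 7 genes summed to 39393 CPM in dendritic-like cells and 39209 CPM in macrophage-like cells led by C1q genes, which did not differ beyond counting error. An unnamed myeloid sub-cluster whose leading genes were tubular (Slc5a12, Slc13a1) followed at 14901 CPM, then B/plasma-like cells at 11412 CPM and monocyte-like cells at 8065 CPM. Far below came neutrophil-like cells at 447 CPM, T/NK-like cells at 245 CPM and endothelial-like cells at 207 CPM, of which the last 2 had overlapping intervals. In ischemia the order was dendritic-like (33389 CPM), C1q macrophage-like (13764 CPM), B/plasma-like (11581 CPM), monocyte-like (5973 CPM), unnamed myeloid (4006 CPM), neutrophil-like (344 CPM), T/NK-like (312 CPM) and endothelial-like cells (160 CPM). Among tubule-like cells, thick ascending limb-like cells were at 10.7 CPM (8.80 to 12.9) in control, with an interval that overlapped that of intercalated cell-like cells alone. They are set beside proximal tubule-like cells below because of this low level, so the difference in sum between these types is a description. They did not lack every member: H2-DMa was at 3.41 CPM in control there and at 2.96 CPM in proximal tubule-like cells.

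**Figure D1:**
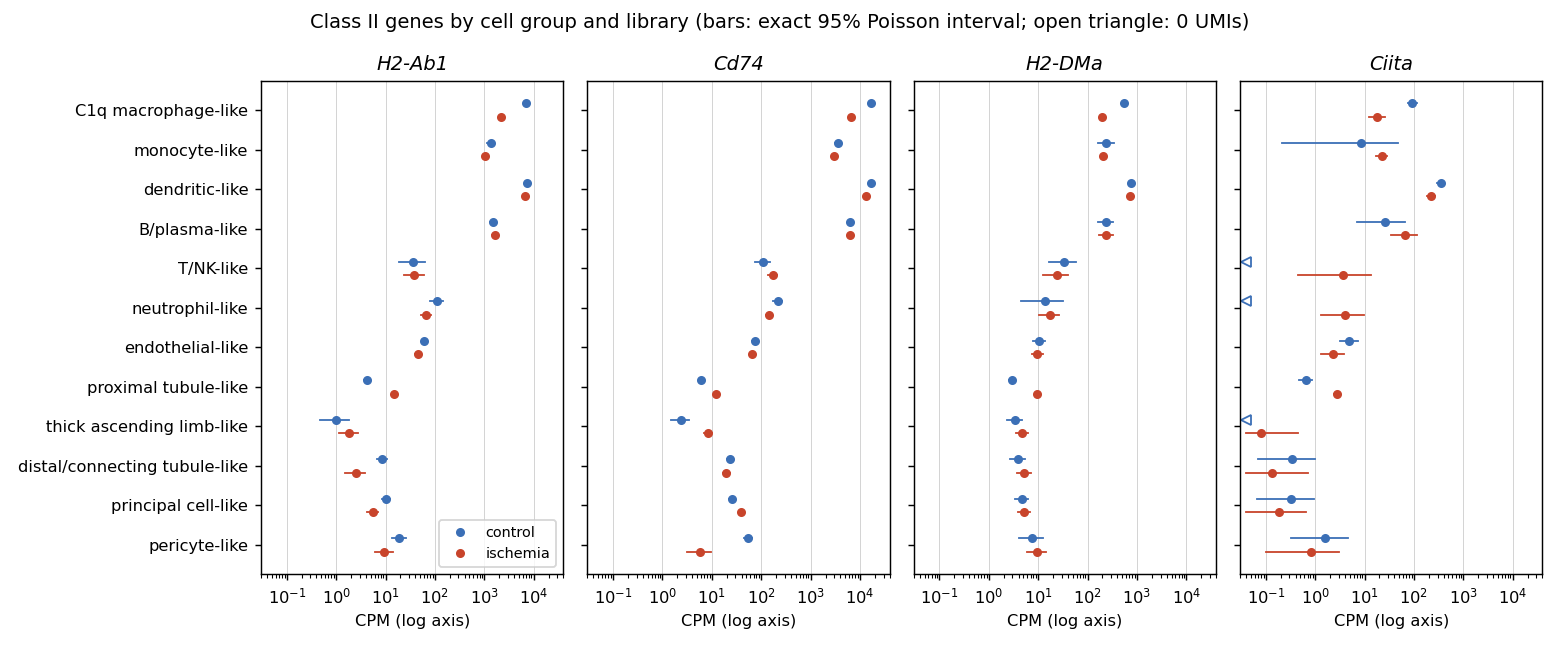
CPM of H2-Ab1, Cd74, H2-DMa and Ciita (log axis) in 12 cell groups of the control and ischemia libraries, with exact 95% Poisson intervals and open triangles for 0 UMIs. Ciita in proximal tubule-like cells stands at 0.654 CPM in the control library and 2.82 CPM in ischemia, above the thick ascending limb-like cells in both libraries.

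Macrophage-like cells as a whole (288 control and 574 ischemia cells) held less class II RNA per UMI in ischemia. H2-Ab1, the I-A beta chain, stood at 5911 CPM in the control library and 1945 CPM in ischemia, a ratio of 0.329 (0.320 to 0.338). H2-Aa, its alpha chain, was at 5406 and 1820 CPM, and H2-Eb1 at 6744 and 1992 CPM. Cd74 (chromosome 18, 60803848 to 60812652, protein-coding) was the most abundant member in both, at 13901 and 5087 CPM. Ciita was at 128 CPM in the control library and 40.3 CPM in ischemia. Of the 7 genes, 6 were lower by 2-fold or more in ischemia, where 3.48% of the 7007 genes with at least 100 UMIs were lower and 5.48% higher. The exception was H2-DMb2, with 41 and 82 UMIs and a ratio of 0.669 (0.455 to 0.999). Of these UMIs the dendritic-like cells held 33 in control and 71 in ischemia. H2-DMb2 was at 93.1 CPM (64.1 to 131) and 126 CPM (98.1 to 158) there. Over macrophage-like cells as a whole the 7 genes had a median ratio of 0.337, against 1.12 for all genes tested.

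The macrophage-like cells differed in make-up between the kidneys. Monocyte-like cells were led by Chil3, S100a8, Saa3 and Vcan, of which S100a8 is also on the neutrophil marker list. They were 6.60% of the macrophage-like cells in control (19 cells) and 46.9% in ischemia (269 cells). Their class II CPM was below that of the C1q cells in each. With the ischemia sub-clusters weighted by the control library's UMIs, the ratio was 0.472 in place of 0.341. Within sub-clusters the ratio differed in size. It was 0.741 (0.693 to 0.792) in monocyte-like cells, 0.848 (0.829 to 0.866) in dendritic-like cells, 0.269 (0.256 to 0.283) in the unnamed myeloid cells and 0.351 (0.345 to 0.357) in the C1q sub-cluster, which was led by Ccl8, Ch25h and C1qa and held 173 control and 163 ischemia cells. There H2-Ab1 was at 7075 CPM in the control library and 2142 CPM in ischemia, and Ciita at 92.2 (74.1 to 113) and 17.8 CPM (12 to 25.4), a ratio of 0.193 (0.123 to 0.295). All 6 members with at least 100 UMIs were lower by 2-fold or more, beside 2.71% of 3613 genes lower and 5.20% higher.

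The C1q cells of the ischemia library also gave more UMIs, at 10329 per cell against 5645, so levels scaled to the UMI total and levels per cell differ. How far this reflects RNA content or depth was not tested. Counted per cell, the 7 genes gave 221 UMIs in control and 142 in ischemia. C1qa, which took part in the clustering, was at 5029 and 4920 CPM, and 9 leukocyte genes (Ptprc, Tyrobp, Fcer1g, Coro1a, Laptm5, Cd52, and the myeloid Lyz2, C1qa and C1qb), called pan-leukocyte genes here, together at 21524 and 20848 CPM. Havcr1, the tubule injury gene, was at 3.07 CPM in the control library and 33.9 CPM in ischemia in these cells. Tubule RNA was therefore present among them, and its part in the result was not tested. Per cell, the median was 401 class II UMIs per 10000 in control, with quartiles of 303 and 492. In ischemia it was 98.3, with quartiles of 43.7 and 212. The upper quartile in ischemia lay below the lower quartile in control.

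**Figure D2:**
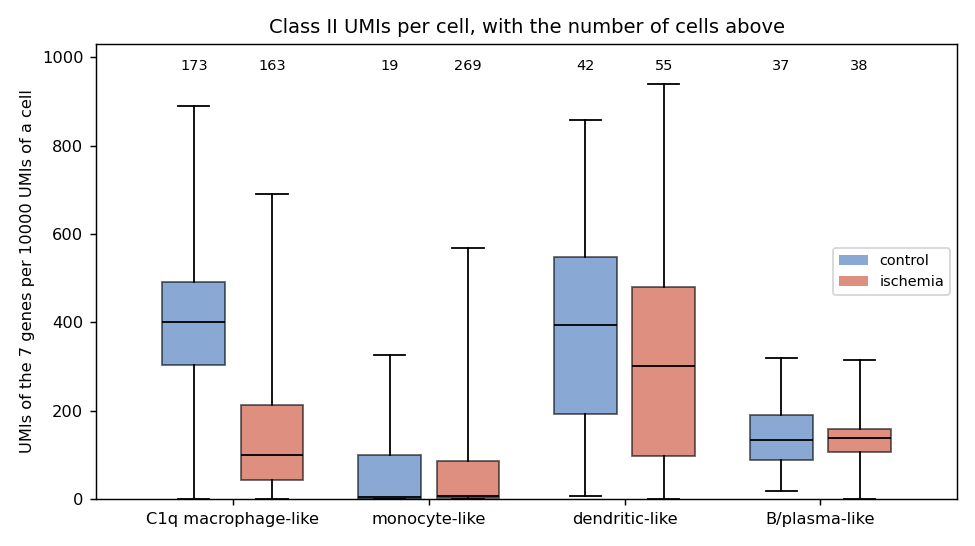
UMIs of the 7 genes per 10000 UMIs of a cell, with box edges at the quartiles, whiskers at the lowest and highest cell, and cell numbers above. C1q macrophage-like cells have medians of 401 in control and 98.3 in ischemia, while B/plasma-like cells have medians of 134 and 137.

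Dendritic-like cells (42 control and 55 ischemia cells, in 2 sub-clusters) held high levels in both libraries. The larger sub-cluster, of 73 cells, was led by Klrd1, Ccr7 and Cd209a and also by Siglech and Cox6a2, genes of plasmacytoid dendritic cells, whose marker list stood highest in it. The smaller one, of only 12 control and 12 ischemia cells, was led by Clec9a and Xcr1. Over the 7 genes the ratio of ischemia to control was 0.757 (0.737 to 0.778) in the larger and 1.05 (1.01 to 1.09) in the smaller. H2-Ab1 was at 7249 CPM in the control library and 6612 CPM in ischemia, and Cd74 at 16633 and 13070 CPM. None of the 7 genes differed by 2-fold in either direction, beside 4.58% of 1266 genes higher and 2.29% lower. Ciita was highest here of all groups, at 347 CPM (288 to 414) in control and 219 CPM (182 to 261) in ischemia. Relative to C1q macrophage-like cells of the same library, dendritic-like cells held 1.005 times the class II CPM (0.985 to 1.02) in control and 2.43 times (2.38 to 2.47) in ischemia. This comparison rests on the clusters: with cell types set by a gate on marker UMIs it was 0.324 in control and 0.948 in ischemia.

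In monocyte-like cells the spread between cells was wide. In ischemia the median cell held 6.23 class II UMIs per 10000, the upper quartile 85.5 and the highest cell 568, and 16.7% of cells held none. The 19 control cells gave a median of 4.42. None of the 5 members with at least 100 UMIs differed by 2-fold, beside 13.8% of 3780 genes higher and 5.66% lower. B/plasma-like cells (37 and 38 cells) showed little difference between kidneys: H2-Ab1 was at 1482 CPM in the control library and 1611 CPM in ischemia, Cd74 at 6350 and 6282 CPM. The 4 members with at least 100 UMIs were within 2-fold, beside 5.05% of 317 genes higher and 3.47% lower. In each library 1 of these cells held at least 10 UMIs of Jchain, a plasma cell gene. In the other 36 control and 37 ischemia cells the 7 genes were at 12857 and 13286 CPM. In T/NK-like cells, H2-Ab1 gave 12 UMIs in control and 21 in ischemia, in 4.90% and 5.56% of cells.

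The antigen-presenting cell groups differed in which H2-DM beta chain they held. H2-DMb2 was read in B/plasma-like cells at 188 CPM (126 to 270) in control and 146 CPM (96.5 to 213) in ischemia, while H2-DMb1 gave 1 and 7 UMIs there. In C1q macrophage-like cells the order was the opposite, with H2-DMb1 at 541 CPM in the control library and 189 CPM in ischemia and H2-DMb2 at 2 and 5 UMIs. Dendritic-like cells held both, with H2-DMb2 at 93.1 and 126 CPM. Per H2-DMb1 UMI there were 0.167 H2-DMb2 UMIs (0.112 to 0.242) in control and 0.203 (0.155 to 0.263) in ischemia. The sub-cluster with Ccr7 and Cd209a, which was also led by the plasmacytoid genes Siglech and Cox6a2, reached 130 and 152 CPM of H2-DMb2. That with Clec9a and Xcr1 reached 35.8 and 64.4 CPM. H2-DMa, the shared alpha chain, was present in each of these groups, from 195 CPM in C1q macrophage-like cells of the ischemia library to 825 CPM in the Clec9a sub-cluster of the same library. The genes are near copies, and 12% of the 90-base stretches of H2-DMb2 transcripts occur in H2-DMb1, so reads there could not be assigned to a single gene. H2-Ob, the beta chain of the H2-O inhibitor of H2-DM, was at 188 and 190 CPM in B/plasma-like cells and 9.22 and 4.16 CPM in C1q macrophage-like cells.

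**Figure D3:**
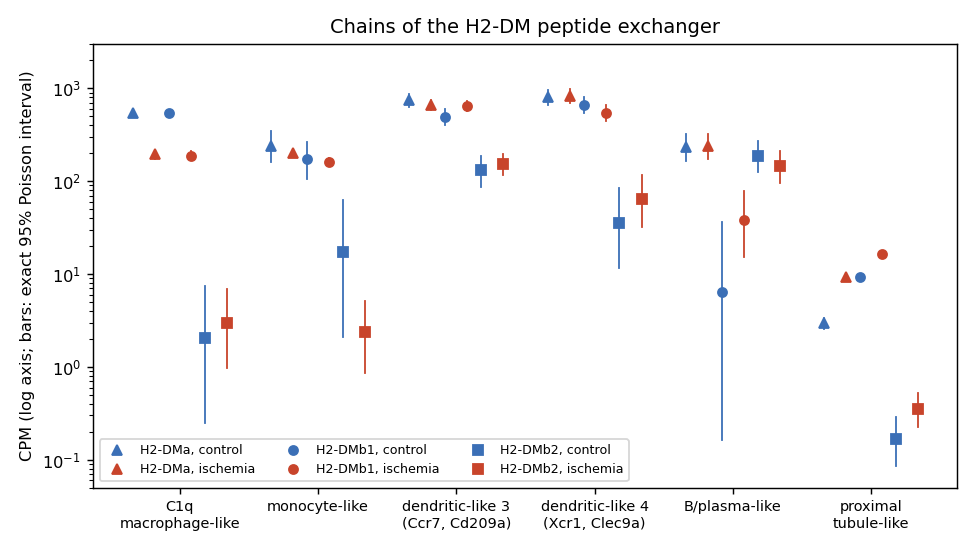
CPM (log axis) of H2-DMa, H2-DMb1 and H2-DMb2 in 6 cell groups of each library, with exact 95% Poisson intervals. H2-DMb2 lies above H2-DMb1 in B/plasma-like cells, at 188 and 146 CPM, and far below it in C1q macrophage-like and proximal tubule-like cells.

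Proximal tubule-like cells (3930 control and 2802 ischemia cells) showed the opposite direction to macrophage-like cells, at levels lower by orders of magnitude, a difference that could not be tested. H2-Ab1 was at 4.2 CPM (3.74 to 4.70) in control and 14.8 CPM (13.9 to 15.8) in ischemia, a ratio of 3.53 (3.10 to 4.03). In barcodes that failed the cell filters it was at 3.89 CPM in the control library and 4.92 CPM in ischemia. The control level in proximal tubule-like cells was near the former. These barcodes failed on genes, depth or mitochondrial share, and the 2524 of the control library held 18006876 UMIs. They cannot be read as a measure of free RNA. Over the 7 genes these barcodes held 24.8 and 24.0 CPM, against 18.1 CPM in control and 52.9 CPM in ischemia in proximal tubule-like cells. H2-Eb1 was at 2.03 and 9.06 CPM, a ratio of 4.46 (3.72 to 5.38), and H2-DMa at 2.96 and 9.39 CPM, a ratio of 3.17 (2.71 to 3.72). Ciita was at 0.654 (0.480 to 0.869) and 2.82 CPM (2.44 to 3.25), a ratio of 4.32 (3.13 to 6.08). Cd74 and H2-Aa differed less, with ratios of 1.98 (1.76 to 2.23) and 2.21 (1.80 to 2.73). H2-DMb2 gave 12 and 24 UMIs. Of the 6 members with at least 100 UMIs, 5 were higher by 2-fold or more in ischemia, where 5.82% of 12336 genes were higher and 3.18% lower, and Cd74 was just under 2-fold. Over the 7 genes the ratio was 2.92 (2.74 to 3.12). It was 1.83 as a mean of each cell's own CPM and 2.06 with each cell thinned to 1000 UMIs.

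Leukocyte RNA was also more abundant in the proximal tubule-like cells of the ischemia library. The 9 pan-leukocyte genes summed to 4.88 CPM in the control library and 14.1 CPM in ischemia, a ratio of 2.90 (2.56 to 3.28). After leaving out the 17 control and 60 ischemia cells with at least 2 such UMIs, H2-Ab1 was at 4.17 and 12.6 CPM, a ratio of 3.02 (2.65 to 3.46). Ciita was then at 0.658 and 2.77 CPM, a ratio of 4.22 (3.05 to 5.94), while Cd74 was at 5.71 and 8.30 CPM and H2-Aa at 1.85 and 2.55 CPM. The 9 genes themselves still stood at 3.25 and 7.04 CPM, and the part of leukocyte RNA in the remaining difference was not tested. Without the 10 cells of each library that held most class II UMIs, the ratio over the 7 genes was 2.77 (2.58 to 2.98).

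In the ischemia library the members also stood in other proportions in proximal tubule-like cells than in leukocyte-like cells. In ischemia there were 3.52 H2-Ab1 UMIs per H2-Aa UMI (3.08 to 4.02), and 4.95 (4.19 to 5.88) without the cells carrying leukocyte UMIs. C1q macrophage-like cells of that library had 0.992 (0.947 to 1.04), monocyte-like cells 1.11 and dendritic-like cells 1.12. Ciita made up 5.34% (4.63 to 6.12) of the class II UMIs in proximal tubule-like cells. Among leukocyte-like groups of that library its share was lowest in C1q macrophage-like cells, at 0.129% (0.0874 to 0.185), and highest in neutrophil-like cells, at 1.18% (0.386 to 2.74) on 5 UMIs. H2-DMa made up 17.8% (16.5 to 19.1) in proximal tubule-like cells and from 1.42% in C1q macrophage-like to 7.65% (4.13 to 12.7) in T/NK-like cells. A high H2-DMa share was also found in thick ascending limb-like cells, at 24.4% (19.1 to 30.3). Pericyte-like cells of the ischemia library had 29.9% (20.0 to 41.4), with 23 H2-Ab1 and 5 H2-Aa UMIs. In control, H2-DMa made up 16.4% (14.4 to 18.5) in proximal tubule-like cells, an interval that overlapped that of ischemia. It made up 1.38% in C1q macrophage-like and 13.6% (6.98 to 23.0) in T/NK-like cells of the control library. Ciita made up 3.62% (2.67 to 4.78) in proximal tubule-like and 0.235% in C1q macrophage-like cells of that library. H2-Ab1 outnumbered H2-Aa in control in neutrophil-like cells (40 and 11 UMIs) as well as in proximal tubule-like cells (302 and 137 UMIs). In thick ascending limb-like cells of the ischemia library, at a median of 24497 UMIs per cell against 18029, H2-Ab1 was at 1.84 CPM (1.17 to 2.76) and Ciita gave 1 UMI. A UMI of H2-Ab1 was found in 4.09% of those cells and in 16.1% of proximal tubule-like cells. With cells thinned to 1000 UMIs these shares were 0.411% and 0.945%, close to the level of single UMIs.

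The higher level was found in each of the 3 proximal tubule-like clusters, with ratios over the 7 genes of 2.31, 3.25 and 2.68. The largest cluster, which stayed unnamed, is not among them, although the proximal tubule marker list stood highest in it. It held 518 class II UMIs in 4551 control cells and 622 in 5878 ischemia cells. In proximal tubule-like cells Havcr1, the injury marker of proximal tubule, was at 7.12 CPM in the control library and 419 CPM in ischemia. In cells with 0 Havcr1 UMIs (3749 control and 901 ischemia cells) H2-Ab1 was at 3.87 CPM (3.42 to 4.37) in control and 10.9 CPM (9.27 to 12.8) in ischemia. In cells with at least 3 Havcr1 UMIs (32 and 1161 cells) it was at 17.6 CPM (9.87 to 29.1) and 18.0 CPM (16.8 to 19.4). The level did not follow Havcr1 in steps, since the 740 ischemia cells with 1 or 2 Havcr1 UMIs had H2-Ab1 at 9.08 CPM (7.55 to 10.8) and the 7 genes at 35.1 CPM, against 42 CPM in cells with 0. Without cells carrying leukocyte UMIs, the ischemia cells with at least 3 Havcr1 UMIs had H2-Ab1 at 14.4 CPM (13.2 to 15.6) and the 7 genes at 45.6 CPM (43.5 to 47.8). Cd74 was then at 8.18 CPM and H2-Aa at 2.71 CPM, against 10.5 and 2.89 CPM in cells with 0. The cells with at least 3 Havcr1 UMIs were also deeper, with a median of 37437 UMIs in ischemia against 8209 in cells without Havcr1. Among ischemia cells with a Ciita UMI, 51.3% (43.2 to 59.4) of 156 also held a UMI of H2-Aa, H2-Ab1 or H2-Eb1, against 19.9% (18.4 to 21.5) of 2646 cells without one, at median depths of 45405 and 16210 UMIs. In control these shares were 16.3% (6.81 to 30.7) of 43 cells and 9.24% (8.34 to 10.2) of 3887, with overlapping intervals. Median depths there were 25639 and 13515 UMIs.

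Endothelial-like cells (901 and 1032 cells) held more class II RNA per UMI than tubule-like cells, with no higher summed level in ischemia. H2-Ab1 was at 60.8 CPM (54.1 to 68.0) in control and 45.4 CPM (40.4 to 50.9) in ischemia, and Cd74 at 73.3 and 65.5 CPM. The 7 genes had a ratio of 0.772 (0.708 to 0.843), but a single control cell held 327 of the 1024 class II UMIs together with 81 pan-leukocyte UMIs. Without cells carrying at least 2 pan-leukocyte UMIs the ratio was 0.980 (0.882 to 1.09), with H2-Ab1 at 47.8 and 42 CPM and Cd74 at 39.4 and 49.1 CPM, a ratio of 1.25 (1.04 to 1.50) for the latter. No member with at least 100 UMIs differed by 2-fold, beside 1.41% of 9376 genes higher and 2.77% lower. Ciita gave 24 UMIs in control and 15 in ischemia. H2-Ab1 outnumbered H2-Aa here too, by 2.07 (1.69 to 2.54) in control and 2.61 (2.09 to 3.27) in ischemia. By cluster, the ratio over the 7 genes was 1.04 (0.941 to 1.15) in the larger endothelial-like cluster and 0.354 (0.273 to 0.455) in the smaller one of 75 and 41 cells. The latter rested on few cells: without the 3 control and 1 ischemia cells carrying leukocyte UMIs, 22 and 9 class II UMIs were left and the ratio was 0.716 (0.290 to 1.62). In the larger cluster it was then 0.937 (0.843 to 1.04). Pan-leukocyte genes in endothelial-like cells were at 83.4 and 136 CPM, and Havcr1 gave 9 and 643 UMIs, and their part in these values was not tested.

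**Figure D4:**
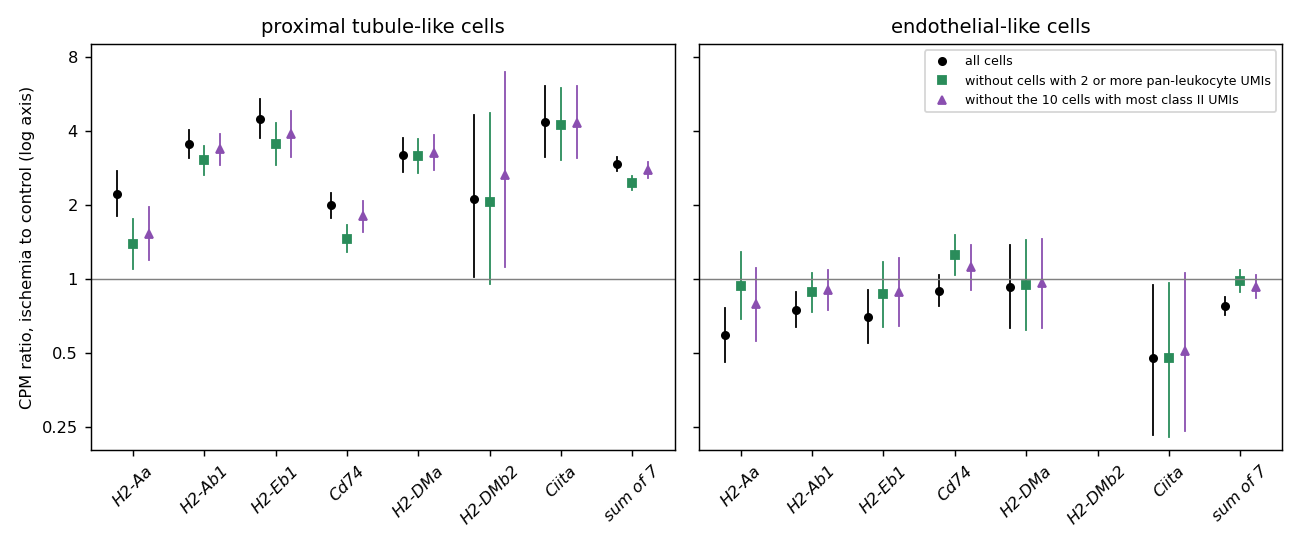
Ratio of CPM in ischemia to control (log axis) for each gene and their sum in proximal tubule-like and endothelial-like cells, over all cells, without cells holding 2 or more pan-leukocyte UMIs, and without the 10 cells with most class II UMIs, with exact 95% intervals. Ciita stays near 4 in proximal tubule-like cells (4.32 and 4.22), while the sum in endothelial-like cells goes from 0.772 to 0.980. H2-DMb2 is not drawn in endothelial-like cells, where it gave 1 and 0 UMIs.

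In distal, connecting and collecting duct cells many of the class II UMIs came from few cells that also held leukocyte UMIs. Collecting duct principal cell-like cells had 62.5 CPM over the 7 genes in control and 64.3 CPM in ischemia, and the single cell with most held 286 class II and 76 pan-leukocyte UMIs in control and 312 and 290 in ischemia. Without cells with at least 2 pan-leukocyte UMIs, H2-Ab1 was at 1.27 and 1.33 CPM. Cd74 differed from this. Without those cells its level was 7.62 CPM in the control library and 23.6 CPM in ischemia, a ratio of 3.09 (2.34 to 4.14) in place of 1.52 (1.29 to 1.78) over all principal cell-like cells. Without the 10 cells of each library with most class II UMIs it was 3.96 (2.69 to 6.01). In distal and connecting tubule-like cells H2-Ab1 was, without cells carrying leukocyte UMIs, at 1.61 and 1.75 CPM, and in thick ascending limb-like cells at 0.887 and 1.53 CPM. Ciita gave at most 3 UMIs in any of these types in either library. In thick ascending limb-like cells Cd74 alone of the members reached 100 UMIs over both libraries, with 24 in control and 104 in ischemia. It was higher by 2-fold or more (2.34 and 8.32 CPM), beside 6.82% of 10012 genes 2-fold higher and 7.26% lower. A single ischemia cell held 41 of the 104 UMIs together with 11 pan-leukocyte UMIs. Without cells carrying leukocyte UMIs, Cd74 was at 2.37 and 4.49 CPM, a difference under 2-fold. In distal and connecting tubule-like cells 2 of the 3 members with at least 100 UMIs, H2-Aa and H2-Eb1, were lower. Beside them, 5.16% of 9320 genes were higher and 4.45% lower. There 1 control cell held 330 of the 504 class II UMIs. It held 59 of the 82 H2-Aa and 61 of the 90 H2-Eb1 UMIs of control, and both genes reached 100 UMIs only through it. H2-Ab1, with 77 and 19 UMIs, did not reach 100. The ratio over the 7 genes there turned from 0.609 (0.523 to 0.709) to 1.47 (1.11 to 1.94) without cells carrying leukocyte UMIs, with Cd74 at 2.64 and 7.55 CPM. In principal cell-like cells 0 of 5 differed by 2-fold, beside 4.62% of 10292 genes higher and 3.74% lower. Pericyte-like cells had 115 CPM over the 7 genes in control and 31.7 CPM in ischemia, on 217 and 77 UMIs. Cd74 made up 47.5% of these UMIs in control and 18.2% in ischemia, and H2-Aa 13.4% and 6.49%. Pericyte-like cells were not read without those carrying leukocyte UMIs, so the part of leukocyte RNA in this difference was not tested.

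Other genes of the pathway were read from a list of which 26 were in the files. In macrophage-like cells 19 had at least 100 UMIs. Of these, 2 were lower by 2-fold or more in ischemia: H2-DMb1 (456 and 210 CPM) and H2-Oa, the alpha chain of H2-O (51.6 and 15.9 CPM). The dendritic-like cells among them held 68 of the 92 control and 77 of the 85 ischemia UMIs of H2-Oa. Its level there was 192 CPM (149 to 243) in control and 136 CPM (107 to 170) in ischemia. Another 2 of the 19 were higher: Ctsl, a cysteine protease of endosomes (179 and 543 CPM), and Cd80, a costimulatory ligand (14.6 and 84.0 CPM). Of all genes tested in macrophage-like cells, 3.48% were lower and 5.48% higher. Among the regulators, Irf1 was at 49.3 and 46.3 CPM, and the RFX subunits Rfxap at 25.2 and 25.7, Rfxank at 5.04 and 6.56 and Rfx5 at 8.41 and 4.13 CPM, the last on 15 and 22 UMIs.

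In proximal tubule-like cells 17 of the 26 had at least 100 UMIs, and 4 were higher by 2-fold or more in ischemia and 0 lower, beside 5.82% of all genes tested higher and 3.18% lower. Irf1, a transcription factor of the interferon response, was at 3.32 and 15.9 CPM, a ratio of 4.80 (4.17 to 5.54). Ifngr2, a chain of the interferon gamma receptor, was at 7.98 and 22.2 CPM, and Ctsl at 587 and 1328 CPM. Both were also higher by 2-fold or more in thick ascending limb-like cells and in distal and connecting tubule-like cells. Of 13 pathway genes with at least 100 UMIs in the former, 3 were higher and 1 lower, beside 6.82% and 7.26% of 10012 genes. Of 13 in the latter, 5 were higher and 1 lower, beside 5.16% and 4.45% of 9320 genes. Ctss, the protease that trims the invariant chain in antigen-presenting cells, gave 30 and 97 UMIs. It was also a leading gene of the macrophage-like cluster, and the pan-leukocyte genes were higher in these tubule-like cells too. Pathway genes were not read without cells carrying leukocyte UMIs, so the part of leukocyte RNA in their values was not tested. Rfx5, Rfxap and Rfxank had ratios of 1.06, 1.35 and 0.858. Irf1 differed in direction between other segments. It was higher in ischemia in thick ascending limb-like cells (9.54 and 22.7 CPM) and in distal and connecting tubule-like cells (11.3 and 28.3 CPM), and lower in principal cell-like cells (96.8 and 38.9 CPM) and thin limb-like cells (221 and 40.5 CPM). Ifng, the gene of interferon gamma, gave 0 UMIs in macrophage-like and proximal tubule-like cells of both libraries. It was read in T/NK-like cells at 109 CPM in the control library and 138 CPM in ischemia, a ratio of 1.26 (0.838 to 1.94).

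Across 35 groups of cell type and library with at least 20 cells, the genes outside both lists whose log2(CPM + 10) followed the mean of H2-Aa, H2-Ab1, H2-Eb1 and Cd74 most closely were Ly86 (r = 0.974), Cd83 (0.972), Lat2 (0.961), Pld4 (0.958), Cybb (0.956), Pou2f2 (0.952), Unc93b1 (0.95), Irf5 (0.946), Fgd2 (0.946) and Tnfaip8l2 (0.944). The groups share 2 libraries and differ in depth, so these correlations are descriptions. H2-DMa followed the mean with r = 0.975 and Ciita with r = 0.900.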

How the data were processed

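Single cell libraries of 1 control and 1 ischemic kidney were made with a 10x Genomics 3′ kit. UMI counts of each gene in each barcode were deposited by the authors; the submitters' processing notes name Cell Ranger 7.0.0 and build mm10, and whether intronic reads were counted is not given in the sources used here. Deposited counts were whole numbers, not normalized. Kept cells held 124679362 UMIs in control and 128733541 in ischemia.

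Clustering used Seurat 5.3.0 (2000 variable genes, scale factor 10000, anchor integration, 30 principal components, resolution 0.3, seed 42), with the class II pathway genes left out of the variable genes. Each cluster was named from the marker list that stood highest in it against the median cluster (average log2 ratio, 10 CPM added), if at least 3 markers had 10 UMIs and no other list had as many among its 10 leading genes (of those with at least 50 UMIs); a cluster with no marker of any list there was named unless its median depth was under the library's divided by 3. Macrophage-like and lymphocyte-like cells were clustered again. Details of naming were set after seeing the data. Members and lists were chosen with earlier results of these data known. Named genes were all members, pathway genes with at least 100 UMIs in macrophage-like cells and a 2-fold difference, regulators, and the 10 most alike genes; pathway genes named in other cell types were chosen after their values were seen. Values of 1 pathway gene are not reported here. Scrublet (scanpy 1.11.5) called 0 doublets, too few for its calls to be of use, and doublets were left in. As an alternative, a gate named each cell from the list with at least 3 marker UMIs and the highest ratio of their share to the mean share over all cells.

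Intervals were exact (Poisson for CPM, Clopper-Pearson for shares, conditional binomial for ratios; scipy 1.17.1) and cover counting error only. No test between conditions was run. On simulated counts of 7007 genes in macrophage-like cells, 95.3% of ratio intervals held the true ratio. The simulated counts were drawn from the Poisson model that the intervals assume, so this share checks the calculation only. Spread between cells was not simulated.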

Additional observations from a re-analysis of the deposited data

Results flagged for a closer look

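The summed class II CPM ratio of ischemia to control lay on opposite sides of 1 in different cell types, at 0.341 in macrophage-like cells and 2.92 in proximal tubule-like cells. With 1 library per condition this difference was not tested.

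Class II UMIs were also present in the barcodes outside the cell filters. The 7 genes stood at 24.8 CPM (22.5 to 27.2) over 2524 such barcodes of the control library and at 24.0 CPM (21.6 to 26.7) over 2141 of the ischemia library.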

How the results depend on the processing

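No paired analysis was possible because each group has 1 library. The class II CPM ratio of ischemia to control stayed below 1 in macrophage-like cells and above 1 in proximal tubule-like cells under every alternative run. In endothelial-like cells its estimate was below 1 in each, but 4 intervals held 1. In macrophage-like cells it was 0.326 with a mitochondrial limit of 25%, 0.355 with at least 1000 UMIs per cell, 0.336 without integration, 0.417 with a gate on marker UMIs, 0.326 when the 8% of cells scored highest as doublets were left out, 0.332 as a mean of each cell's CPM, 0.330 over UMIs other than mitochondrial ones, 0.324 with cells thinned to 1000 UMIs and 0.472 at the control mix of sub-clusters. In endothelial-like cells it was 0.902 (0.801 to 1.02) with the gate, 0.968 (0.872 to 1.07) without the highest doublet scores, 0.852 as the mean of cells, 0.980 (0.882 to 1.09) without pan-leukocyte carriers and 0.928 (0.830 to 1.04) without the 10 cells with most class II UMIs. In proximal tubule-like cells it was 2.54 with the mitochondrial limit, 3.21 without integration, 2.46 with the gate, 1.83 as the mean of cells, 2.06 thinned and 2.45 without carriers. The value without integration did not compare like cells. A shallow cluster of 98 control and 6800 ischemia cells (median 823 UMIs) was then named proximal tubule-like. Another of 5815 control and 106 ischemia cells (median 946 UMIs) stayed unnamed. The ratio of dendritic-like to C1q macrophage-like cells in control was 1.09 with 1000 UMIs, 1.11 without integration, 0.973 with the class II genes kept for clustering, 0.324 with the gate, 0.962 as the mean of cells and 0.931 thinned. In ischemia it was, in the same order, 2.61, 2.64, 2.35, 0.948 (a reversal), 2.20 and 2.18, and 2.53 at resolution 0.6, 2.68 without the highest doublet scores and 2.49 without mitochondrial UMIs; the cause was not tested. The leukocyte share in control was 93.9% with the mitochondrial limit, 93.3% with 1000 UMIs, 92.7% without integration, 92.8% at resolution 0.6, 93.5% with the class II genes kept, and 94.4% both with the gate and without the highest doublet scores. In ischemia it was 91.1% with the mitochondrial limit and 91.5% with the gate. Scrublet called 0 doublets, so leaving out its calls removed no cell and says nothing about stability. Leaving out the highest doublet scores and the 10 cells with most class II UMIs were alternatives chosen after seeing the data. Depth limits members with few UMIs, such as H2-DMb2 in proximal tubule-like cells, whose ratio of 2.10 had an interval of 1.01 to 4.62.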
